A study of Arabidopsis thaliana with 90 samples.

Results

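PIL1 (AT2G46970), HFR1 (AT1G02340), PAR1 (AT2G42870) and PAR2 (AT3G58850) are the shade-induced genes of the basic helix-loop-helix (bHLH) class that were followed here, 4 of the 28775 genes counted, in all 90 libraries. They were chosen by name, with earlier results of these data known, and all 4 passed the filter on low counts. PIL1 is a bHLH protein related to the PHYTOCHROME INTERACTING FACTORs (PIFs) whose transcript is a standard marker of the shade response. HFR1, PAR1 and PAR2 are atypical members of the class that bind other bHLH proteins, PIFs among them, and keep them from DNA, and so restrain elongation growth.

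The libraries are polyadenylated RNA from 4-day-old Arabidopsis seedlings grown in darkness at 27 or 17 °C and then left in darkness or given 1 h or 24 h of red light (R, 50 µmol m-2 s-1), with 3 libraries per group. In the names of the lines, the letters a to e stand for phytochromes A to E, and a capital marks the one that still works. PHYD-YFP/abCde carries 35S:PHYD-YFP, a transgene under a strong constitutive promoter, with phyC as the working endogenous phytochrome. PHYD-YFP/abcde carries it in the quintuple mutant, in the Landsberg erecta background. PHYB-CFP, PHYD-YFP/abcde carries PHYD-YFP together with PHYB-CFP under the PHYB promoter, PHYB-CFP/abcde carries PHYB-CFP alone, and aBcde has endogenous phyB only. All 5 lines lack phyA, phyD and phyE as endogenous receptors. PHYD-YFP/abcde was selected for its high phyD-YFP level and its transgene was crossed into the background with phyC, so PHYD-YFP/abCde shares that insertion. Against lines without PHYD-YFP, a line effect cannot be told apart from an effect of that insertion. How PHYB-CFP, PHYD-YFP/abcde was made is not described in the sources used here.

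Phytochromes are switched on by R, enter the nucleus and bind PIFs, which are then degraded. In darkness and in shade PIFs accumulate and activate growth genes through the G-box and related elements. PIL1, HFR1, PAR1 and PAR2 are known targets of PIFs, and HFR1, PAR1 and PAR2 in turn act on PIFs as brakes, so their transcripts are read as a gauge of PIF activity and as part of the feedback on it.

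Library totals ran from 15010386 to 41124234 counts, with a median of 17751738. Levels are given as CPM, a gene's reads per 1000000 reads of the tested genes after TMM scaling, which corrects for differences in composition between libraries. PHYD was at 3852 CPM or more in every library of the 3 lines with PHYD-YFP, and its median in the other lines was 17.7 CPM. In those other lines 4 libraries exceeded 100 CPM of PHYD: aBcde at 27 °C after 24 h R, replicate 1 (587.5 CPM), and after 1 h R, replicate 3 (147.1 CPM), aBcde at 17 °C in darkness, replicate 1 (107.1 CPM), and PHYB-CFP/abcde at 27 °C in darkness, replicate 1 (170.6 CPM). Among the libraries of PHYD-YFP/abCde given 1 h R at 17 °C, replicate 3 lay farther from the other replicates (root mean square log2 difference 1.01 and 1.00) than those lay from each other (0.555). The median level of PHYD was 21090 CPM in PHYD-YFP/abCde, 7216 CPM in PHYD-YFP/abcde and 7499 CPM in PHYB-CFP, PHYD-YFP/abcde. LHCB1.1, an antenna protein of green tissue, had a median of 3.62 CPM in darkness, 5.42 CPM after 1 h R and 2132 CPM after 24 h R. The root hair genes EXPA7 and COBL9 stayed between 0 and 4.33 CPM, so these markers of roots were nearly absent. In bulk seedling RNA, fewer cells of a kind and less RNA per cell cannot be told apart. No label states whether replicates were separate cultures, so p-values measure the spread between these samples, which may be technical.

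The 4 genes all lie on the minus strand of TAIR10.1. PIL1 is at chr2:19295431-19297858 with 6 merged exons, HFR1 at chr1:465616-467880 with 4, PAR1 at chr2:17836416-17837618 with 1, and PAR2 at chr3:21759350-21760390 with 1. None of them overlaps another annotated gene, and the strand setting of the counting is not given in the sources used here. The G-box CACGTG, which reads the same on both strands, and the related E-box CACATG, read as CATGTG on the other strand, were searched in the 2000 bases upstream of each annotated start on both strands. PIL1 held 3 G-boxes, HFR1 held 2, and PAR1 and PAR2 held 1 each. Of 27440 protein-coding nuclear genes, 23.8% had at least 1 G-box in a window of that length, 5.48% at least 2 and 1.33% at least 3. The related E-box was found 0 times for PIL1, 1 time for HFR1, 4 times for PAR1 and 6 times for PAR2. At least 1 was held by 61.0% of the same windows, at least 4 by 3.48% and at least 6 by 0.339%. In the shorter window from 250 bases upstream to 50 bases downstream of the start, no G-box was found for the 4 genes, against 7.68% of all such windows, and 1 related E-box was found for PAR2 and none for the others, against 12.9%. A match of letters is a description of the sequence and no measurement of binding.

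The stretches with these letters are printed because they are where the members differ and where the PAR genes resemble each other. They were read from the RefSeq copy of TAIR10.1, run 5′ to 3′ toward the gene, and have the G-boxes and related E-boxes in capitals. The windows were chosen after the positions of the matches were seen. In PIL1 (chr2:19298926-19299100, minus strand, 1242 to 1068 bases upstream of the start) all 3 G-boxes fell in 175 bases.
PIL1: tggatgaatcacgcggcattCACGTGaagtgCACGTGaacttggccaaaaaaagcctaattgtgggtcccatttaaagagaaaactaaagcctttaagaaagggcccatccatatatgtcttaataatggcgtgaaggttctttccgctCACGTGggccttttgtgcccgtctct
In HFR1 the 2 G-boxes stood apart, at chr1:469274-469319 (1439 to 1394 bases upstream) and chr1:468855-468900 (1020 to 975 bases upstream), both on the minus strand.
HFR1 far: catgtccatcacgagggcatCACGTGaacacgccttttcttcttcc
HFR1 near: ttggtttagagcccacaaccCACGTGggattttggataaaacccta
In PAR1 (chr2:17838503-17838575, 957 to 885 bases upstream) and PAR2 (chr3:21761367-21761440, 1050 to 977 bases upstream) the single G-box was followed by CATGTG, counted from first base to first base, after 27 and 28 bases. The near end of the annotated gene AT2G09405 is 503 bases upstream of PAR1. Both PAR1 stretches printed here lie farther upstream than that end, so they may lie within AT2G09405.
PAR1 far: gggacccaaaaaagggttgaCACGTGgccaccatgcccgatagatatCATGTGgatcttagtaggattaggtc
PAR2 far: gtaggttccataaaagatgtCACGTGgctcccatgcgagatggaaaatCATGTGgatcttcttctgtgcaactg
Closer to the start, PAR1 (chr2:17838324-17838414, 796 to 706 bases upstream) held 3 related E-boxes, and PAR2 (chr3:21761094-21761185, 795 to 704 bases upstream) held 4, of which the last pair overlaps by 4 bases.
PAR1 near: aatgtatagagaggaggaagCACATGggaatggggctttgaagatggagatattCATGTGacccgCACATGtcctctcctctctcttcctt
PAR2 near: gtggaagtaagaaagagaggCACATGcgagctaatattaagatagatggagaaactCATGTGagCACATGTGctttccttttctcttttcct

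In R, transcripts of the 4 genes fell wherever a change passed the test. Over 20 comparisons of irradiated with dark seedlings per gene, 61 of 80 tests passed at a q under 0.05, where q is the p of edgeR's quasi-likelihood test after Benjamini-Hochberg adjustment over 20695 genes, with 61 decreases and 0 increases. PIL1 fell in 20 of 20 comparisons, HFR1 in 17, PAR1 in 16 and PAR2 in 8. Each test was repeated under 11 alternative settings (other tools, filters and models, and libraries left out), and 51 of the 61 calls passed under all of them, 18 for PIL1, 15 for HFR1, 13 for PAR1 and 5 for PAR2. Across all genes the share called in these comparisons ran from 0.0676% to 43.7%, and calls of a decrease from 0.0628% to 21.5%. The libraries with R and in darkness did not overlap in 20 of 20 comparisons for PIL1, 20 for HFR1, 19 for PAR1 and 7 for PAR2, and over all genes this held for 10.3% to 53.6%. Per kilobase of exon, HFR1 was the most abundant of the 4 in darkness (80.8 to 191 CPM per kb over 10 group means). PIL1 had 37.2 to 62.5 CPM per kb, PAR1 16.4 to 51.7 CPM per kb and PAR2 2.85 to 30.2 CPM per kb.

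**Figure D1:**
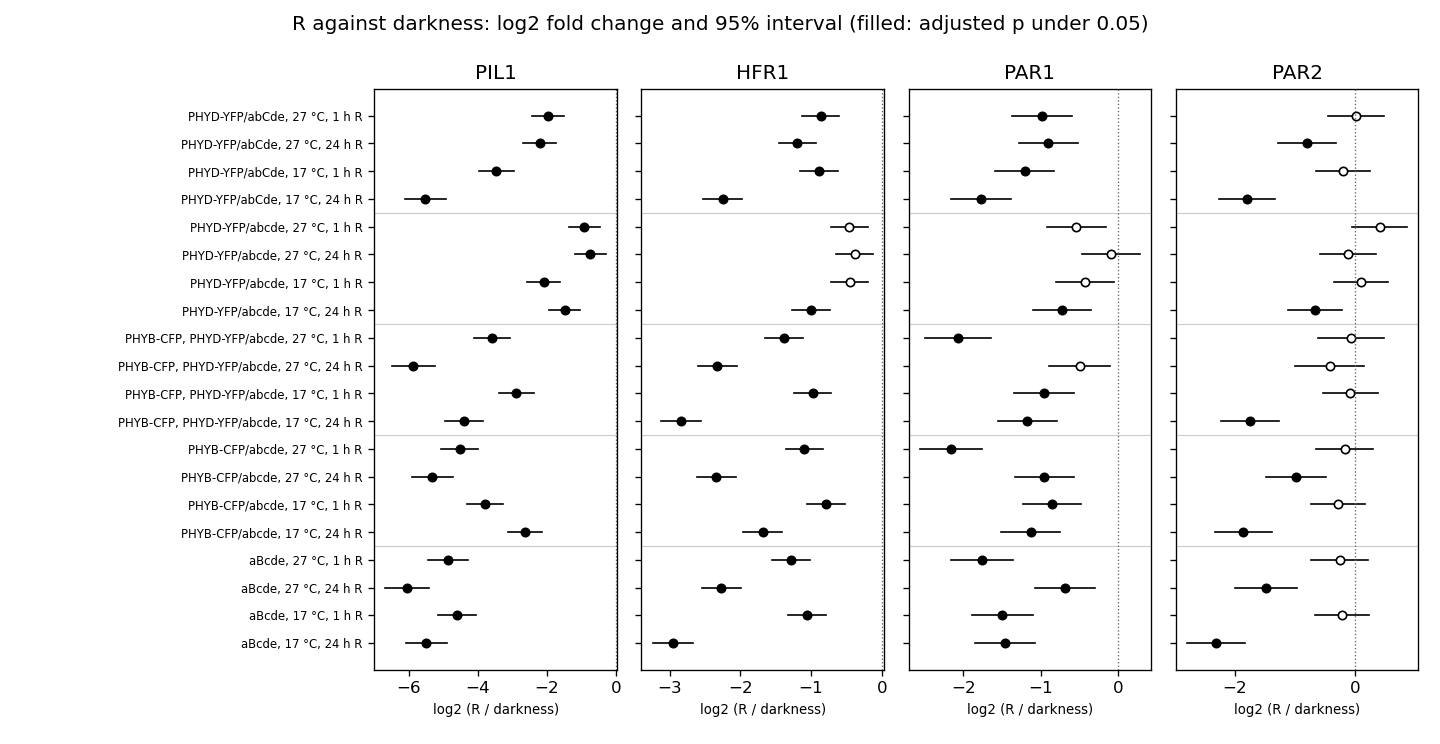
Log2 fold change of R against darkness for each gene (columns) in each line, temperature and duration of R (rows), with 95% intervals from edgeR. Filled points passed at a q under 0.05. All 20 points of PIL1 are filled and lie left of 0, and none of the 10 points of PAR2 at 1 h R is filled.

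PIL1 had the widest range of the 4, with group means between 0.855 ± 0.570 CPM in aBcde at 27 °C after 24 h R and 108 ± 11.8 CPM in PHYD-YFP/abcde at 17 °C in darkness (SD, n = 3 each), a 126-fold range. The low end held the library with 587.5 CPM of PHYD, and without it the mean there was 0.526 CPM and the range 205-fold. That lower mean rested on 2 libraries, with 10 and 8 counts of PIL1. In PHYD-YFP/abCde at 27 °C it had 85.99, 80.8 and 82.6 CPM in darkness, 21.1, 17.8 and 24.7 CPM after 1 h R, and 18.5, 20.8 and 14.6 CPM after 24 h R. At 17 °C the same line had 89.2, 104 and 109 CPM in darkness, 8.93, 11.3 and 7.10 CPM after 1 h R, and 2.25, 2.06 and 2.24 CPM after 24 h R. At 27 °C the libraries after 1 h and 24 h R overlapped, and at 17 °C all those after 24 h lay below those after 1 h. Its log2 fold change after 1 h R was -1.97 (SE 0.24, q = 2.05e-08) at 27 °C, where 0.445% of all genes were called, and -3.47 (SE 0.26, q = 9.39e-17) at 17 °C, where 6.24% were. After 24 h R it was -2.21 (SE 0.24, q = 3.77e-11) at 27 °C (30.2% of genes called) and -5.52 (SE 0.29, q = 4.76e-25) at 17 °C (34.1% of genes called).

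In PHYD-YFP/abcde, without phyC, every irradiated library had more PIL1 than any library of the other 4 lines at the same temperature and time. At 27 °C it had 74.1, 77.9 and 86.2 CPM in darkness, 38.3, 45.98 and 42.5 CPM after 1 h R, and 47.4, 50.7 and 45.1 CPM after 24 h R. At 17 °C it had 117, 94.3 and 112 CPM in darkness, 24.6, 26.3 and 25.05 CPM after 1 h R, and 36.5, 40.9 and 38.1 CPM after 24 h R. All irradiated libraries lay below the dark ones, and those after 24 h lay above those after 1 h at 17 °C. At 27 °C the log2 fold changes were -0.91 (SE 0.23, q = 0.0360) after 1 h and -0.73 (SE 0.23, q = 0.0331) after 24 h, where 0.72% and 7.28% of all genes were called. At 17 °C they were -2.09 (SE 0.24, q = 1.44e-08) and -1.49 (SE 0.23, q = 2.04e-06), with 0.0676% and 11.9% of genes called. Both calls at 27 °C were lost with quantile-normalized values (limma, q = 0.358 and 0.243), with the replicate block and without replicate 1, 2 or 3, and over the alternative settings q ran from 0.00219 to 0.446 after 1 h and from 0.00847 to 0.243 after 24 h.

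At 27 °C the 3 lines with phyB gave deeper decreases of PIL1 than either PHYD-YFP line without phyB. At 17 °C they were deeper than in PHYD-YFP/abcde, but not all deeper than in PHYD-YFP/abCde. PHYB-CFP, PHYD-YFP/abcde at 27 °C had 69.2, 84.6 and 74.6 CPM in darkness, 5.38, 5.87 and 7.71 CPM after 1 h R, and 1.67, 0.146 and 1.90 CPM after 24 h R. At 17 °C it had 102, 107 and 102 CPM in darkness, 10.4, 11.8 and 20.05 CPM after 1 h R, and 4.24, 5.43 and 5.04 CPM after 24 h R. In its 27 °C group after 24 h R, replicate 2 rested on 2 counts of PIL1, the lowest of any library. PHYB-CFP/abcde at 27 °C had 74.3, 76.03 and 76.3 CPM in darkness, 2.79, 4.28 and 2.51 CPM after 1 h R, and 3.38, 1.53 and 0.829 CPM after 24 h R. At 17 °C this line had 86.2, 88.3 and 85.01 CPM in darkness, 7.92, 5.71 and 5.07 CPM after 1 h R, and 13.6, 10.2 and 18.1 CPM after 24 h R. That was the one comparison of a phyB line in which PIL1 was higher after 24 h than after 1 h. In aBcde at 27 °C the levels were 62.1, 67.9 and 62.4 CPM in darkness, 3.01, 2.28 and 1.34 CPM after 1 h R, and 1.51, 0.517 and 0.535 CPM after 24 h R. At 17 °C they were 92.97, 90.005 and 107 CPM in darkness, 3.43, 4.74 and 3.77 CPM after 1 h R, and 1.85, 2.93 and 1.63 CPM after 24 h R. No irradiated library of these lines reached a dark one. The log2 fold changes after 24 h R at 27 °C were -5.87 (SE 0.31) in PHYB-CFP, PHYD-YFP/abcde, -5.32 (SE 0.30) in PHYB-CFP/abcde and -6.05 (SE 0.31) in aBcde. At 17 °C they were -4.40 (SE 0.27), -2.63 (SE 0.24) and -5.495 (SE 0.30) in the same order of lines. In these lines 8.3% of all genes were called after 1 h and 27.8% after 24 h R at 27 °C in PHYB-CFP, PHYD-YFP/abcde, 5.56% and 31.9% in PHYB-CFP/abcde, and 4.32% and 35.7% in aBcde. At 17 °C the shares were 1.18% and 37.8%, 0.744% and 25.7%, and 23.1% and 43.7% in the same order. The 6 q values (edgeR) were 1.69e-13 or less.

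**Figure D2:**
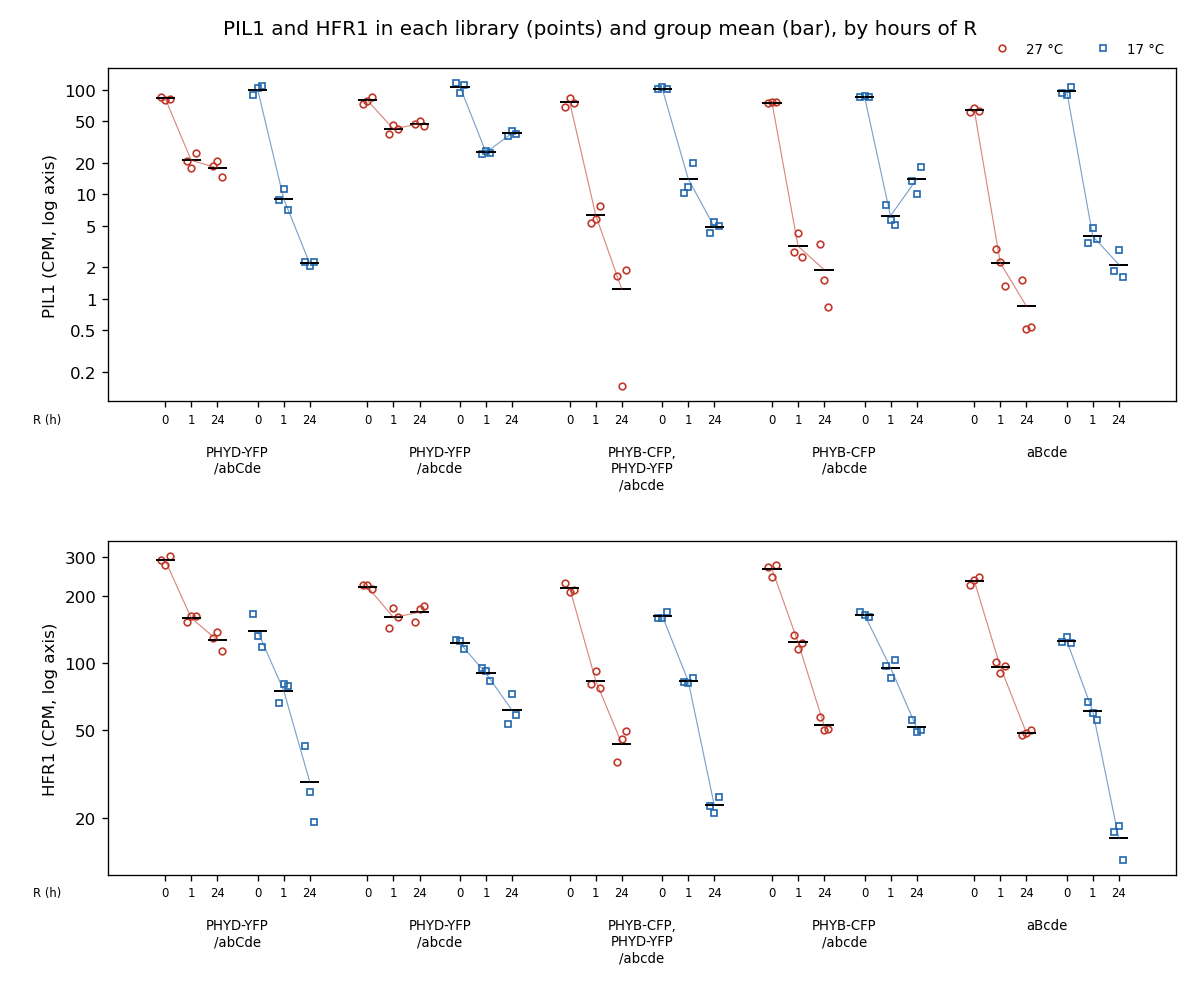
CPM of PIL1 (top) and HFR1 (bottom) on log axes, by line, temperature (27 °C circles, 17 °C squares) and hours of R. Each point is a library and each bar the mean of 3. PIL1 after 24 h R lies between 14.6 and 20.8 CPM at 27 °C and between 2.06 and 2.25 CPM at 17 °C in PHYD-YFP/abCde, and between 0.829 and 3.38 CPM at 27 °C and between 10.2 and 18.1 CPM at 17 °C in PHYB-CFP/abcde.

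HFR1 had a smaller log2 fold change than PIL1 in each of the 20 comparisons, and its dark level was higher at 27 °C than at 17 °C in every line. HFR1 encodes the PIF partner whose protein the COP1 and SPA ubiquitin ligase degrades in darkness. In PHYD-YFP/abCde at 27 °C it had 293, 276 and 303 CPM in darkness, 153, 163 and 164 CPM after 1 h R, and 129, 139 and 113 CPM after 24 h R. At 17 °C the line had 166, 133 and 118 CPM in darkness, 66.4, 80.2 and 79.3 CPM after 1 h R, and 42.1, 26.2 and 19.3 CPM after 24 h R. At both temperatures the libraries after 24 h lay below those after 1 h, and those below the dark ones. The log2 fold changes after 1 h and 24 h R were -0.86 (SE 0.13) and -1.19 (SE 0.13) at 27 °C. They were -0.89 (SE 0.13) and -2.25 (SE 0.14) at 17 °C. All 4 passed, and the call after 1 h at 17 °C was lost, with q = 0.762 (range over its alternatives 5.78e-09 to 0.762), when that comparison was fitted to its own 6 libraries.

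In PHYD-YFP/abcde, HFR1 fell past the threshold in 1 of 4 comparisons, where 0.0676% to 11.9% of all genes were called. At 27 °C the levels were 224, 224 and 215 CPM in darkness, 144, 178 and 161 CPM after 1 h R, and 154, 175 and 180.3 CPM after 24 h R. At 17 °C they were 128, 126 and 116 CPM in darkness, 94.97, 91.8 and 83.2 CPM after 1 h R, and 53.4, 72.5 and 58.3 CPM after 24 h R. The irradiated libraries lay below the dark ones throughout. After 24 h R at 17 °C the log2 fold change was -1.003 (SE 0.13, q = 4.61e-08). The changes that did not pass were -0.46 (SE 0.13, q = 0.0753) after 1 h at 27 °C, -0.38 (SE 0.13, q = 0.0585) after 24 h at 27 °C and -0.45 (SE 0.13, q = 0.345) after 1 h at 17 °C. Both 27 °C changes passed with DESeq2 (q = 0.0393 and 0.0298), and over the alternative settings q ran from 0.0393 to 0.534 after 1 h and from 0.0298 to 0.335 after 24 h.

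With phyB present, HFR1 fell in 12 of 12 comparisons, where 0.744% to 43.7% of all genes were called. The call after 1 h in PHYB-CFP/abcde at 17 °C was lost under 1 of 11 settings (q 6.44e-07 to 0.124), without replicate 2. PHYB-CFP, PHYD-YFP/abcde at 27 °C had 230.1, 209 and 213 CPM in darkness, 80.3, 91.8 and 77.6 CPM after 1 h R, and 35.7, 45.3 and 49.3 CPM after 24 h R. At 17 °C it had 160.5, 160.0 and 170.2 CPM in darkness, 82.1, 81.4 and 85.6 CPM after 1 h R, and 22.6, 21.2 and 24.8 CPM after 24 h R. The dark libraries of the 2 temperatures did not overlap, and those after 1 h R did. PHYB-CFP/abcde at 27 °C had 272, 246 and 278 CPM in darkness, 133, 115 and 124 CPM after 1 h R, and 57.04, 49.9 and 50.5 CPM after 24 h R. At 17 °C it had 169, 165 and 161 CPM in darkness, 97.3, 85.9 and 103 CPM after 1 h R, and 55.3, 48.8 and 50.000 CPM after 24 h R. Here the libraries after 24 h R overlapped between the temperatures. In aBcde at 27 °C the levels were 224, 236 and 244 CPM in darkness, 101, 90.3 and 97.2 CPM after 1 h R, and 47.6, 48.2 and 49.9 CPM after 24 h R. At 17 °C they were 125, 131 and 123 CPM in darkness, 66.9, 59.9 and 55.3 CPM after 1 h R, and 17.3, 18.4 and 13.01 CPM after 24 h R. No overlap between the temperatures was seen in aBcde. The largest decrease of HFR1 in the series was that of aBcde at 17 °C after 24 h R, -2.95 (SE 0.14, q = 5.88e-27), where 43.7% of all genes were called.

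PAR1, an HLH protein without a DNA-binding region, fell at 1 h in 8 of 10 comparisons, and in several lines at 27 °C it had partly returned by 24 h. The share of all genes called at 1 h ran from 0.0676% to 23.1% over these 10 comparisons. In PHYD-YFP/abCde at 27 °C it had 32.8, 29.3 and 29.2 CPM in darkness, 14.6, 16.6 and 15.04 CPM after 1 h R, and 18.7, 16.8 and 13.3 CPM after 24 h R. At 17 °C the line had 78.3, 41.8 and 50.99 CPM in darkness, 30.5, 27.8 and 15.6 CPM after 1 h R, and 11.5, 21.3 and 17.2 CPM after 24 h R. The 1 h and 24 h libraries overlapped at both temperatures, and both lay below the dark ones. After 1 h R the log2 fold change at 27 °C was -0.98 (SE 0.20, q = 0.00222), and at 17 °C it was -1.21 (SE 0.19, q = 1.05e-05). When the comparison at 17 °C was fitted to its own 6 libraries the call was lost, at q = 0.850 (1.45e-07 to 0.850 over the settings), and that at 27 °C was lost under 2 of 11 settings (q 0.000311 to 0.150), without replicate 1 or 2. The 24 h values were -0.90 (SE 0.19, q = 0.000197) at 27 °C and -1.77 (SE 0.20, q = 1.59e-11) at 17 °C. In PHYD-YFP/abcde at 27 °C the levels were 29.4, 42.2 and 33.02 CPM in darkness, 27.98, 23.6 and 20.2 CPM after 1 h R, and 31.8, 29.8 and 36.8 CPM after 24 h R. At 17 °C they were 63.8, 61.000 and 61.9 CPM in darkness, 49.4, 47.7 and 42.4 CPM after 1 h R, and 39.7, 38.4 and 35.01 CPM after 24 h R. Only the change after 24 h R at 17 °C passed in that line, at -0.72 (SE 0.19, q = 0.00520). The other 3 were -0.54 (SE 0.19, q = 0.222) after 1 h at 27 °C, -0.09 (SE 0.19, q = 0.852) after 24 h at 27 °C and -0.42 (SE 0.19, q = 0.788) after 1 h at 17 °C.

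In the lines with phyB the drop and return of PAR1 at 27 °C was plain in every library. PHYB-CFP, PHYD-YFP/abcde at 27 °C had 18.9, 19.7 and 20.5 CPM in darkness, 4.46, 4.24 and 5.29 CPM after 1 h R, and 12.2, 14.996 and 14.8 CPM after 24 h R. PHYB-CFP/abcde at 27 °C had 40.3, 35.6 and 35.1 CPM in darkness, 7.20, 9.26 and 8.13 CPM after 1 h R, and 20.5, 17.5 and 19.3 CPM after 24 h R. aBcde at 27 °C had 30.6, 28.2 and 30.6 CPM in darkness, 8.75, 9.45 and 8.25 CPM after 1 h R, and 18.8, 19.6 and 17.2 CPM after 24 h R. In each of these lines the 3 libraries after 24 h R lay above those after 1 h and below the dark ones. Over all genes the 24 h and dark libraries did not overlap for 47.2%, 50.3% and 53.6% in the same order of lines. That share was not computed for 24 h against 1 h R. Against darkness the decrease after 24 h R passed in PHYB-CFP/abcde (-0.95, SE 0.19, q = 5.84e-05) and aBcde (-0.68, SE 0.19, q = 0.00338) and not in PHYB-CFP, PHYD-YFP/abcde (-0.49, SE 0.20, q = 0.0531). That last change passed under 5 of 11 settings (q 0.0113 to 0.211), DESeq2 and limma among them. The rise between 1 h and 24 h was 1.58 (SE 0.21, q = 1.49e-08) in PHYB-CFP, PHYD-YFP/abcde, where 23.7% of all genes were called, and 1.21 (SE 0.20, q = 1.35e-06) in PHYB-CFP/abcde, where 29.9% were. In aBcde it was 1.08 (SE 0.20, q = 1.34e-05), with 33.7% called. LHCB1.1 also rose between these times, and its part in the result was not tested. At 17 °C the libraries after 1 h and 24 h R overlapped. PHYB-CFP, PHYD-YFP/abcde had 58.7, 41.03 and 50.2 CPM in darkness, 29.4, 23.7 and 24.2 CPM after 1 h R, and 19.6, 27.5 and 19.5 CPM after 24 h R. PHYB-CFP/abcde had 56.1, 64.4 and 57.4 CPM in darkness, 29.02, 24.2 and 45.1 CPM after 1 h R, and 33.1, 24.9 and 23.3 CPM after 24 h R. aBcde had 51.2, 53.9 and 39.2 CPM in darkness, 18.1, 14.97 and 18.1 CPM after 1 h R, and 19.8, 13.1 and 19.7 CPM after 24 h R. The change from 1 h to 24 h at 17 °C was -0.21 (95% interval -0.60 to 0.17), -0.28 (95% interval -0.66 to 0.10) and 0.04 (95% interval -0.35 to 0.43) in the same order of lines, none of which passed.

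**Figure D3:**
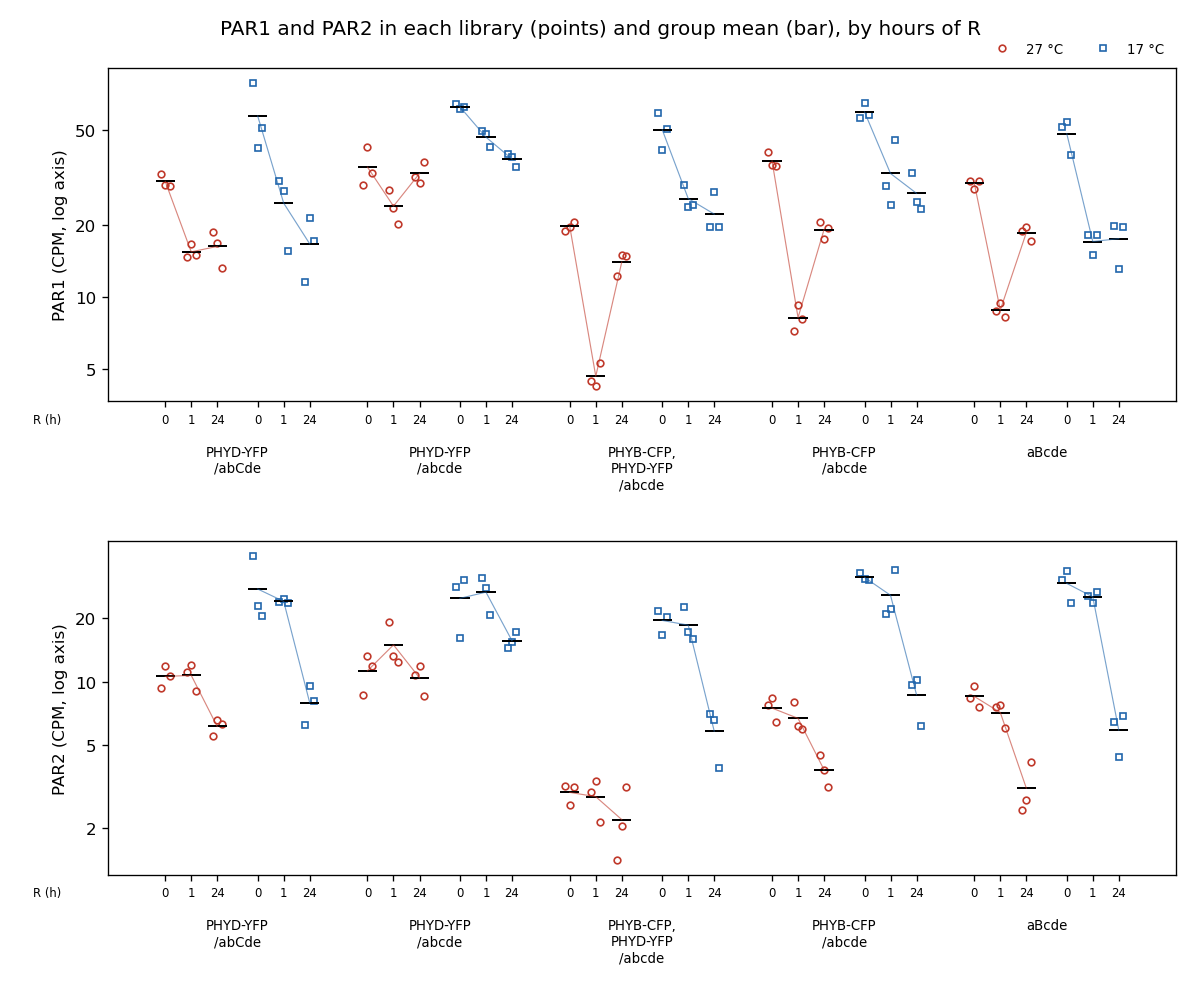
CPM of PAR1 (top) and PAR2 (bottom) on log axes, drawn as for PIL1 and HFR1. At 27 °C in the 3 lines with phyB, PAR1 lies between 4.24 and 9.45 CPM after 1 h R and between 12.2 and 20.5 CPM after 24 h R.

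PAR2, the close relative of PAR1, passed the test after 1 h R in 0 of 10 comparisons (edgeR, with 0 of 10 at an unadjusted p under 0.05 and 0 of 10 with DESeq2 or limma) and fell in 8 of 10 after 24 h. Over the same comparisons 0.0676% to 23.1% of all genes were called after 1 h and 7.28% to 43.7% after 24 h. In PHYD-YFP/abCde at 27 °C it had 9.32, 11.8 and 10.6 CPM in darkness, 11.1, 12.01 and 8.999 CPM after 1 h R, and 5.49, 6.58 and 6.27 CPM after 24 h R. PHYD-YFP/abcde at 27 °C had 8.65, 13.3 and 11.9 CPM in darkness, 19.3, 13.2 and 12.4 CPM after 1 h R, and 10.8, 11.9 and 8.58 CPM after 24 h R. PHYB-CFP, PHYD-YFP/abcde had 3.18, 2.59 and 3.14 CPM in darkness, 2.98, 3.37 and 2.15 CPM after 1 h R, and 1.42, 2.05 and 3.13 CPM after 24 h R. In darkness and after 1 h R these libraries were the lowest of the 5 lines, and the 3 times overlapped. PHYB-CFP/abcde had 7.72, 8.32 and 6.40 CPM in darkness, 7.98, 6.14 and 5.93 CPM after 1 h R, and 4.46, 3.79 and 3.15 CPM after 24 h R. aBcde had 8.33, 9.58 and 7.59 CPM in darkness, 7.61, 7.77 and 6.001 CPM after 1 h R, and 2.43, 2.74 and 4.15 CPM after 24 h R. After 24 h R the decrease passed in PHYD-YFP/abCde (-0.80, SE 0.24), PHYB-CFP/abcde (-0.98, SE 0.25) and aBcde (-1.48, SE 0.26). It did not in PHYD-YFP/abcde (-0.11, 95% interval -0.58 to 0.36) and PHYB-CFP, PHYD-YFP/abcde (-0.42, 95% interval -0.99 to 0.16). With quantile-normalized values (limma) the change in PHYB-CFP, PHYD-YFP/abcde was -0.71 and passed (q 0.0202 to 0.851 over the settings), and without replicate 2 the calls in PHYD-YFP/abCde and PHYB-CFP/abcde were lost (q = 0.116 and 0.0684).

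At 17 °C PAR2 was higher before R was given. PHYD-YFP/abCde had 39.5, 22.9 and 20.5 CPM in darkness, 24.02, 24.6 and 23.7 CPM after 1 h R, and 6.18, 9.58 and 8.05 CPM after 24 h R. PHYD-YFP/abcde at 17 °C had 28.3, 16.1 and 30.5 CPM in darkness, 31.3, 28.02 and 20.8 CPM after 1 h R, and 14.4, 15.4 and 17.2 CPM after 24 h R. The dark and 1 h libraries overlapped in both lines. For PHYB-CFP, PHYD-YFP/abcde at 17 °C the levels were 21.8, 16.7 and 20.2 CPM in darkness, 22.6, 17.2 and 15.9 CPM after 1 h R, and 6.98, 6.57 and 3.86 CPM after 24 h R. For PHYB-CFP/abcde at 17 °C they were 33.03, 30.8 and 30.4 CPM in darkness, 20.99, 22.2 and 34.2 CPM after 1 h R, and 9.60, 10.2 and 6.17 CPM after 24 h R. For aBcde at 17 °C they were 30.7, 33.8 and 23.7 CPM in darkness, 25.6, 23.6 and 26.9 CPM after 1 h R, and 6.43, 4.36 and 6.84 CPM after 24 h R. The 24 h libraries lay below every other library of their line in the 3 lines with phyB, and PHYD-YFP/abCde showed the same separation. PHYD-YFP/abcde was the exception, since its highest 24 h library (17.2 CPM) exceeded its lowest dark one (16.1 CPM). After 1 h R the intervals of the log2 fold change at 17 °C were -0.64 to 0.25 in PHYD-YFP/abCde and -0.66 to 0.24 in aBcde, which leave out the log2 fold changes of PAR1 in the same libraries (-1.21 and -1.496). After 24 h R the log2 fold changes were -1.80 (SE 0.24, q = 3.42e-09) in PHYD-YFP/abCde and -0.67 (SE 0.23, q = 0.0401) in PHYD-YFP/abcde. The call in PHYD-YFP/abcde was lost under 6 of 11 settings (q 0.0357 to 0.368), each replicate left out among them. The log2 fold changes were -1.75 (SE 0.24) in PHYB-CFP, PHYD-YFP/abcde, -1.86 (SE 0.24) in PHYB-CFP/abcde and -2.32 (SE 0.24) in aBcde.

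Between 24 h and 1 h of R, 27 of 40 tests passed, 23 as decreases and 4 as increases, and 2.03% to 56.5% of all genes were called in these comparisons. By line, the share at 27 °C was 27.9% in PHYD-YFP/abCde and 2.03% in PHYD-YFP/abcde, beside those given for the lines with phyB. At 17 °C PHYD-YFP/abCde had 41.3% and PHYD-YFP/abcde 13.8%, and it was 36.5% in PHYB-CFP, PHYD-YFP/abcde, 24.9% in PHYB-CFP/abcde and 56.5% in aBcde. HFR1 went on falling in 8 of 10 comparisons and PAR2 in 8 of 10, PIL1 fell in 6 and rose in 1, and PAR1 rose in 3 and fell in 1. Of these calls 19 passed under all 11 alternative settings, 7 for HFR1, 5 for PAR2, 4 for PIL1 and 3 for PAR1. The rise of PIL1 was in PHYB-CFP/abcde at 17 °C, 1.17 (SE 0.25, q = 0.000300), to 13.6, 10.2 and 18.1 CPM after 24 h R, against 7.92, 5.71 and 5.07 CPM after 1 h. The 3 later libraries lay above the earlier ones, in a comparison where 24.9% of all genes were called. The share of all genes without overlap between 24 h and 1 h R was not computed.

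Growth temperature divided the 4 genes. The study grew seedlings at 27 and 17 °C to ask how warmth changes phyD and phyB signalling. HFR1 was higher at 27 °C in 13 of 15 comparisons and lower in 0, PAR2 was lower in 14 and higher in 0, and PAR1 was lower in 12 and higher in 0. PIL1 was higher in 3 and lower in 7. Of these 49 calls 36 passed under all 11 alternative settings, with 5 of 10 for PIL1. Calls were common in these comparisons, at 48.4% to 57.9% of all genes, so a passed test sets the 4 genes apart little. In darkness, after 1 h R and after 24 h R, PHYD-YFP/abCde had 57.9%, 53.8% and 51% of genes called and PHYD-YFP/abcde 53.3%, 49.6% and 53.3%. The shares were 49.5%, 48.7% and 49.9% in PHYB-CFP, PHYD-YFP/abcde, 52.2%, 51.9% and 48.4% in PHYB-CFP/abcde and 54.5%, 52.4% and 52.7% in aBcde. Over all genes the libraries of the 2 temperatures did not overlap for 49.8% to 65.9%. For the members this held in 15 of 15 comparisons for PIL1, 13 for HFR1, 11 for PAR1 and 14 for PAR2.

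In darkness HFR1 at 27 °C was 291 ± 13.3 CPM in PHYD-YFP/abCde, against 139 ± 24.6 CPM at 17 °C, and 235 ± 9.77 CPM in aBcde, against 126 ± 4.18 CPM at 17 °C (SD, n = 3 each). The log2 fold changes were 1.06 (SE 0.13, q = 2.07e-10) and 0.90 (SE 0.13, q = 3.13e-08). PAR2 went the other way in the same libraries, with 10.6 ± 1.25 CPM at 27 °C and 27.6 ± 10.3 CPM at 17 °C in PHYD-YFP/abCde (SD, n = 3 each), a log2 fold change of -1.39 (SE 0.23, q = 5.73e-07). PHYB-CFP, PHYD-YFP/abcde had the largest difference of PAR2 in darkness, -2.72 (SE 0.26, q = 6.14e-14), at 2.97 ± 0.330 CPM at 27 °C and 19.6 ± 2.57 CPM at 17 °C (SD, n = 3 each). PAR1 in darkness had log2 fold changes of -1.34 to -0.68 over the 5 lines, all of which passed. HFR1 did not differ past the threshold in 2 groups, PHYB-CFP, PHYD-YFP/abcde after 1 h R (0.00, 95% interval -0.26 to 0.27) and PHYB-CFP/abcde after 24 h R (0.03, 95% interval -0.24 to 0.30).

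In R the temperature difference of PIL1 was positive in the 2 PHYD-YFP lines without phyB and negative in the 3 lines with it. After 24 h R, PIL1 at 27 °C was 17.98 ± 3.13 CPM in PHYD-YFP/abCde, against 2.19 ± 0.108 CPM at 17 °C (SD, n = 3 each), and the 2 sets of libraries did not overlap, with a log2 fold change of 3.04 (SE 0.28, q = 2.39e-14). In PHYB-CFP/abcde it was 1.91 ± 1.32 CPM at 27 °C and 13.96 ± 4.001 CPM at 17 °C (SD, n = 3 each), a log2 fold change of -2.88 (SE 0.29, q = 7.52e-13), also with no overlap. PHYB-CFP, PHYD-YFP/abcde and aBcde were lower at 27 °C as well, at -1.91 (SE 0.33) and -1.15 (SE 0.36). The call in aBcde was lost under 3 of 11 settings (q 0.000170 to 0.245), with -0.62 without replicate 2, and was -2.01 without the 4 libraries high in PHYD. In PHYD-YFP/abcde the difference after 24 h R was 0.31 (SE 0.23, q = 0.253). Already after 1 h R, PIL1 was higher at 27 °C in PHYD-YFP/abCde, at 1.22 (SE 0.25, q = 2.29e-05), and in PHYD-YFP/abcde, at 0.74 (SE 0.23, q = 0.00608), the second of which was lost under 3 of 11 settings (q 0.000160 to 0.0965). At that time the log2 fold changes were -1.15 (SE 0.26), -0.93 (SE 0.27) and -0.85 (SE 0.31) in PHYB-CFP, PHYD-YFP/abcde, PHYB-CFP/abcde and aBcde, all lower at 27 °C, and the call in PHYB-CFP/abcde was lost under 2 of 11 settings (q 0.000118 to 0.132). In darkness the difference passed in aBcde (-0.59, SE 0.23, q = 0.0223), a call lost under 4 of 11 settings (q 4.94e-06 to 0.785) and at -0.14 with the replicate block. In the other 4 lines the dark differences of -0.44 to -0.19 did not pass, and with each comparison fitted to its own 6 libraries all 4 did (q = 0.000121 to 0.0317), and the lines were not tested against each other. The difference after 1 h R in aBcde did not pass without the 4 libraries high in PHYD, at -0.59 (q = 0.121), and over its alternative settings q ran from 0.00221 to 0.409.

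**Figure D4:**
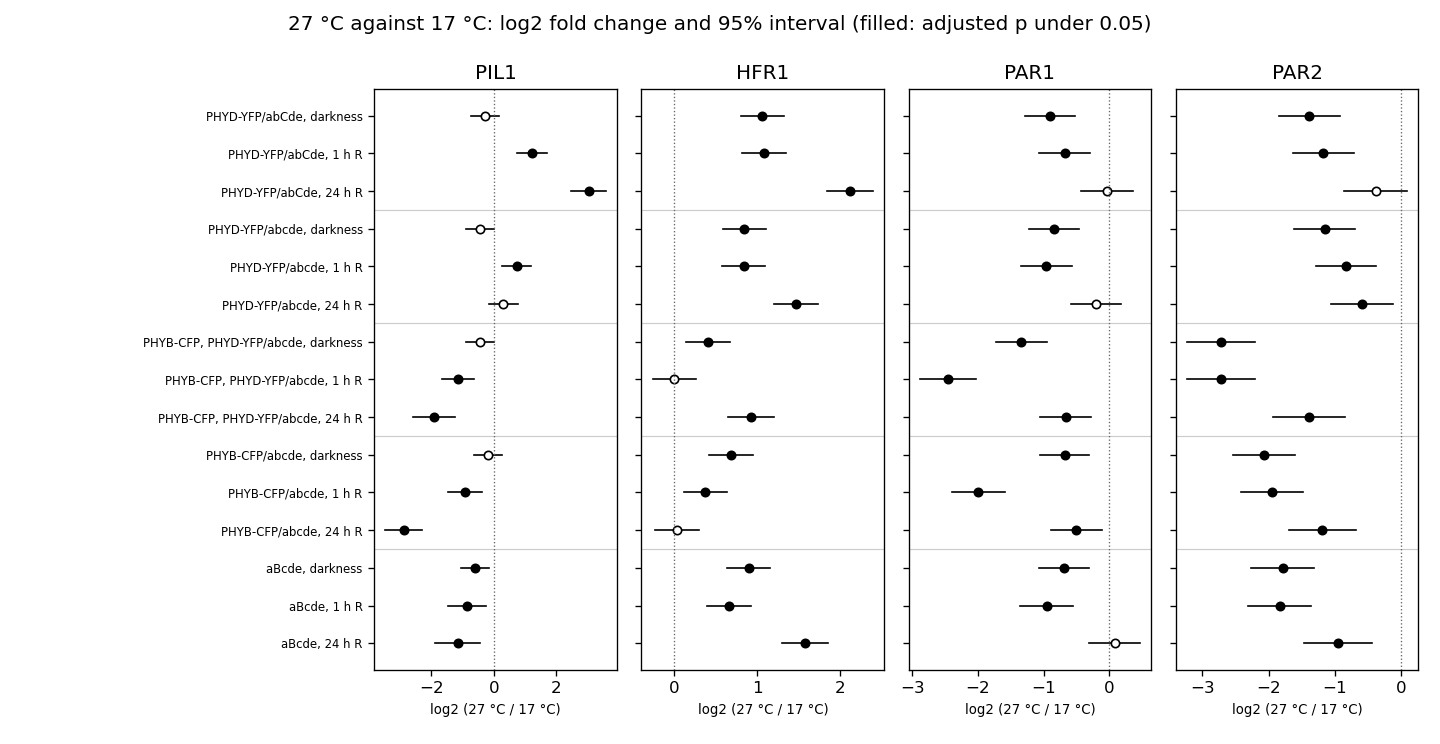
Log2 fold change of 27 °C against 17 °C for each gene (columns) in each line and light condition (rows), with 95% intervals from edgeR and filled points for a q under 0.05. After 1 h and 24 h R the points of PIL1 lie right of 0 in the 2 PHYD-YFP lines without phyB and left of 0 in the 3 lines with it.

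Whether R acted differently at the 2 temperatures was tested as the response at 27 °C minus that at 17 °C, and 12 of 40 tests passed (5 without replicate 2 and 7 without replicate 3), where the share of all genes ran from 0.0145% to 14.1%. In PHYD-YFP/abCde after 24 h R (14.1% of all genes called) all 4 genes had a smaller decrease at 27 °C, with differences of 3.32 (SE 0.36, q = 7.14e-11) for PIL1, 1.06 (SE 0.19, q = 2.05e-05) for HFR1, 0.87 (SE 0.27, q = 0.0199) for PAR1 and 1.002 (SE 0.33, q = 0.0309) for PAR2. The calls of PAR1 and PAR2 were lost without replicate 1, at 0.31 and 0.50, and in all under 3 of 11 settings (q 0.0102 to 0.660) and 4 of 11 settings (q 0.0163 to 0.550). After 1 h R the decrease of PIL1 was also smaller at 27 °C in this line, with a difference of 1.501 (SE 0.33, q = 0.0231), where 0.198% of genes were called. Without the single library that lay apart (replicate 3 of this line, 17 °C, 1 h R), that difference was 1.35 (q = 0.167, and 0.00101 to 0.504 over the alternative settings).

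In lines with phyB the sign was mixed, and whether the temperature effect itself differed between lines was not tested. In PHYB-CFP/abcde after 24 h R, PIL1 fell more at 27 °C, with a difference of -2.69 (SE 0.37, q = 4.18e-07), and so did HFR1, with -0.65 (SE 0.19, q = 0.0170), where 8.84% of genes were called. PIL1 in PHYB-CFP, PHYD-YFP/abcde likewise differed by -1.47 (SE 0.41, q = 0.0144), and without replicate 2, which holds the library with 2 counts, the difference was -0.85 and no longer passed. PAR1 fell more at 27 °C after 1 h R in PHYB-CFP/abcde (-1.31, SE 0.27, q = 0.00596) and in PHYB-CFP, PHYD-YFP/abcde (-1.12, SE 0.28, q = 0.0177). HFR1 in aBcde (0.68, SE 0.19, q = 0.0111) and PAR2 in PHYB-CFP, PHYD-YFP/abcde (1.33, SE 0.38, q = 0.0174) had a smaller decrease at 27 °C after 24 h R. Without replicate 3 that of PAR2 was 0.76 and no longer passed, and it was lost under 2 of 11 settings (q 0.0139 to 0.325), as was that of HFR1 in aBcde under 2 of 11 settings (q 0.00392 to 0.103). The calls of HFR1 and PAR1 in PHYB-CFP/abcde were lost under 3 of 11 settings (q 0.000409 to 0.246) and 3 of 11 settings (q 0.00101 to 0.232), and that of PAR1 in PHYB-CFP, PHYD-YFP/abcde under 3 of 11 settings (q 0.00217 to 0.398). In PHYD-YFP/abcde 0 of 8 tests passed in the main edgeR model, DESeq2 or limma, and 4 of 8 had an unadjusted p under 0.05. Of all genes 0.0145% were called there after 1 h and 1.28% after 24 h R. The 95% intervals for PIL1 were 0.53 to 1.83 after 1 h and 0.11 to 1.39 after 24 h R. Both differences of PIL1 passed when fitted by edgeR to their own libraries alone. They were then 1.18 (q = 0.0146) after 1 h and 0.727 (q = 0.04) after 24 h R.

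Responses were also compared between lines, which asks what phyC adds to phyD-YFP and how phyD-YFP compares with phyB, and 15 of 64 tests passed (8 without replicate 2), where at most 6.45% of all genes were called. After 24 h R at 27 °C the decrease in PHYD-YFP/abCde was deeper than that in PHYD-YFP/abcde for PIL1, with a difference of -1.47 (SE 0.32, q = 0.00675), and for HFR1, with -0.81 (SE 0.18, q = 0.00841), where 2.23% of genes were called. PAR1 (95% interval -1.35 to -0.27) and PAR2 (95% interval -1.36 to -0.02) did not pass there. Both calls at 27 °C depended on the setting, that of PIL1 being lost under 3 of 11 settings (q 0.000632 to 0.109) and that of HFR1 under 2 of 11 settings (q 0.00407 to 0.129). At 17 °C (4.66% of genes called) all 4 genes passed, with differences of -4.04 (SE 0.36, q = 1.72e-13) for PIL1, -1.25 (SE 0.19, q = 1.90e-06) for HFR1, -1.05 (SE 0.27, q = 0.00965) for PAR1 and -1.13 (SE 0.32, q = 0.0257) for PAR2. Without replicate 1 those of PAR1 and PAR2 were -0.52 and -0.79 and did not pass, and in all they were lost under 2 of 11 settings (q 0.00363 to 0.618) and 4 of 11 settings (q 0.00980 to 0.480). At 27 °C the difference of PIL1 after 1 h R was -1.06 (SE 0.32, q = 0.695). After 1 h R at 17 °C PIL1 differed by -1.38 (SE 0.33, q = 0.0297), a call lost without the single library of PHYD-YFP/abCde that lay apart (-1.23, q = 0.322, and 0.00257 to 0.346 over the alternative settings). The level of PHYD also differed between these 2 lines, and its part in these differences was not tested.

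Set against aBcde at 27 °C, PIL1 had a smaller decrease in PHYD-YFP/abCde, with a difference of 2.89 (SE 0.36, q = 5.06e-07) after 1 h R, where 0.135% of genes were called, and of 3.84 (SE 0.39, q = 3.11e-11) after 24 h R, where 4.25% were. HFR1 also had a smaller decrease after 24 h R at 27 °C, with 1.08 (SE 0.19, q = 5.73e-05). At 17 °C after 24 h R the difference of PIL1 was -0.03 (95% interval -0.83 to 0.78, q = 0.982 by edgeR), and that of HFR1 was 0.70 (SE 0.19, q = 0.0192), where 4.67% of genes were called. The differences of PAR1 after 24 h R were -0.22 (95% interval -0.76 to 0.33) at 27 °C and -0.32 (95% interval -0.86 to 0.23) at 17 °C and did not pass. After 1 h R at 17 °C the difference of PIL1 was 1.13 (SE 0.35, q = 0.265), and it passed without the same single library, at 1.28 (q = 0.0176, and 0.0176 to 1 over the settings). The calls of HFR1 were lost under 1 of 11 settings (q 2.14e-07 to 0.0508) at 27 °C and 3 of 11 settings (q 0.00960 to 0.288) at 17 °C.

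The 2 sources of phyB gave different responses of PIL1 and HFR1 at 17 °C after 24 h R (4.62% of genes called). PIL1 fell less in PHYB-CFP/abcde than it did in aBcde, the difference being 2.87 (SE 0.37, q = 6.70e-08), and so did HFR1, with 1.27 (SE 0.19, q = 4.68e-06). With PHYD-YFP added to PHYB-CFP the responses of PIL1 and HFR1 were deeper (5.42% of genes called). The differences were -1.77 (SE 0.35, q = 0.000754) for PIL1 and -1.15 (SE 0.19, q = 5.19e-05) for HFR1. That of HFR1 was lost under 1 of 11 settings (q 1.11e-06 to 0.0563), without replicate 2. PAR1 and PAR2 did not pass in either pair of lines at this temperature and time. At 27 °C 0 of 16 tests in these 2 pairs of lines passed with edgeR, DESeq2 or limma, 1 of 16 had an unadjusted p under 0.05, and at most 0.401% of all genes were called. PHYB had a median of 586 CPM in PHYB-CFP, PHYD-YFP/abcde, 445 CPM in PHYB-CFP/abcde and 94.0 CPM in aBcde over 18 libraries each, counts that do not separate the transgene from the mutated endogenous gene.

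Before R few differences between lines passed in these genes. In darkness 2 of 32 tests between lines passed, where 1.83% to 15.4% of all genes were called. PAR1 in PHYB-CFP, PHYD-YFP/abcde at 27 °C had 18.9, 19.7 and 20.5 CPM, against 40.3, 35.6 and 35.1 CPM in PHYB-CFP/abcde, a log2 fold change of -0.91 (SE 0.19, q = 0.00106). PAR2 had 3.18, 2.59 and 3.14 CPM, against 7.72, 8.32 and 6.40 CPM, a log2 fold change of -1.33 (SE 0.26, q = 0.000264). No library of one line overlapped the other for these 2 genes. In this comparison the same held for 28.3% of all genes, and 3.35% were called. The call of PAR1 was lost under 1 of 11 settings (q 8.23e-08 to 0.0547), without replicate 1, and that of PAR2 under 1 of 11 settings (q 3.72e-05 to 0.109), without replicate 2. PIL1 passed in 0 of 8 comparisons (edgeR, and 0 of 8 at an unadjusted p under 0.05), with log2 fold changes of -0.16 to 0.37. HFR1 also passed in 0 of 8 (4 of 8 at an unadjusted p under 0.05), with -0.29 to 0.39, and for both genes DESeq2 and limma passed 0 of 8. Under at least 1 of the 11 settings, 4 of the 8 tests of HFR1 and 1 of the 8 of PIL1 did pass. Fitting each comparison to its own 6 libraries gave 8 of 32 in place of 2. The share of all genes called under that fit was not computed.

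Among genes of the same pathway, the other shade-induced genes mostly fell where they passed the test. Of 12 tested, 2 to 9 fell and 0 rose after 1 h R over the 10 comparisons, and 3 to 11 fell and 0 to 1 rose after 24 h R. Across all genes 0.0676% to 23.1% were called after 1 h R and 7.28% to 43.7% after 24 h R over the same 10 comparisons each. The median log2 fold change of the 12 ran from -1.87 to -0.43 after 1 h and from -2.25 to -0.37 after 24 h, against -0.02 to 0.03 for all tested genes. In aBcde at 27 °C after 1 h R the smallest p-values were those of IAA29, an auxin response repressor (-4.06, SE 0.25), and the homeodomain-leucine zipper factors HAT3 (-3.01, SE 0.22) and ATHB2 (-2.70, SE 0.21). In PHYD-YFP/abCde they were, after 24 h R at 17 °C, XTH15, a cell wall enzyme (-5.46, SE 0.30), ATHB2 (-2.82, SE 0.21) and FHL, which helps carry phyA into the nucleus (-2.44, SE 0.21).

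Of 7 PIF genes tested, 0 to 2 rose and 0 to 2 fell after 1 h R, and 2 to 5 rose and 0 to 2 fell after 24 h R, with median log2 fold changes of -0.08 to 0.44 and of 0.34 to 1.89. With 24 h R at 17 °C in PHYD-YFP/abCde, PIF5 (1.89, SE 0.17) and PIF7 (5.56, SE 0.60) rose and PIF6 (-2.44, SE 0.24) fell. Among 11 other HLH regulators of growth, 1 to 6 fell and 0 rose after 1 h R, and 2 to 6 fell and 0 to 4 rose after 24 h R, with medians of -1.05 to -0.13 and of -0.97 to 0.22. In the same comparison of PHYD-YFP/abCde, PRE6, a small HLH protein that promotes growth (-2.13, SE 0.20), and BIM1, a brassinosteroid signalling factor (-0.83, SE 0.11), fell, and HBI1, a bHLH activator of elongation (1.27, SE 0.16), rose. Of the 7 genes for COP1, its SPA partners, HY5 and HYH, the light signalling genes tied to HFR1 turnover and to HY5, 0 to 6 rose and 0 fell after 1 h R, and 3 to 5 rose and 0 to 2 fell after 24 h R, with medians of 0.07 to 1.26 and of 0.21 to 0.90. In aBcde at 27 °C after 1 h R, SPA1 (2.03, SE 0.14), SPA3 (1.06, SE 0.16) and HYH (1.62, SE 0.41) rose. After 24 h R in PHYD-YFP/abCde at 17 °C, SPA1 (0.96, SE 0.14) and SPA3 (0.67, SE 0.16) rose and HY5 (-1.39, SE 0.22) fell.

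Over the 30 group means of log2 CPM, PIL1 was correlated with HFR1 at 0.761 (Pearson's r) and with PAR1 at 0.706, PAR1 with PAR2 at 0.689, and PIL1 with PAR2 at 0.537. HFR1 had 0.329 with PAR1 and 0.274 with PAR2. The points share lines and light conditions, and these values are descriptions. The genes most like PIL1 among the 20695 tested were AT5G02580 (0.959), AT3G21330 (0.953), CKX5 (0.931), a cytokinin oxidase, AT5G28300 (0.910) and HB-2 (0.906), which is ATHB2. Those most like HFR1 were PHYA (0.960), the photoreceptor gene, FLP1 (0.957), AT4G23440 (0.943), AT5G57670 (0.932) and AT5G66080 (0.931). For PAR1 they were AT1G67590 (0.903), AT1G71970 (0.895), AT3G04860 (0.874), AT5G62280 (0.861) and AT4G25280 (0.861). For PAR2 they were RCI2B (0.967), AT4G30180 (0.961), BGAL5 (0.956), ENODL8 (0.955) and LNG1 (0.955). PAR1 and PAR2 shared none of these genes. Of 29 neighbouring pairs in the order of group means, the libraries overlapped in 25 pairs for PIL1, 23 for HFR1, 26 for PAR1 and 28 for PAR2.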

How the data were processed

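Gene expression was measured by poly(A)-enriched RNA sequencing in 90 libraries, 30 groups of 3. The authors trimmed the reads with Trimmomatic, mapped them to TAIR10 with STAR and counted them per gene with htseq-count, and the deposited values are raw counts of 28775 genes. The deposited counts were tested with edgeR 4.0.16 in R 4.3.3. Following the study's methods, 279 organelle genes and 627 tRNA or rRNA genes were removed, as were genes without at least 5 counts in 25% of libraries (23), which left 20695. A quasi-likelihood model with TMM scaling and 30 group means (60 residual degrees of freedom) gave each comparison, and each comparison's p-values received a Benjamini-Hochberg adjustment over all tested genes. A call is an adjusted p (q) under 0.05. The study worked from quantile-normalized values, which serve here as an alternative with limma 3.58.1.

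Responses between temperatures or lines are differences of log2 fold changes in that model. CPM for levels has TMM scaling, and correlations used log2 CPM with a prior count of 2. Other alternatives were DESeq2 1.42.0, no filter, a mean count of at least 50, a model of each comparison's libraries alone, a replicate block, each replicate left out, and a 2-fold minimum. Leaving out the 4 libraries high in PHYD, or the library of PHYD-YFP/abCde that lay apart, was chosen after seeing the data. On simulated data for aBcde at 17 °C, 1 h R against darkness, with 20695 genes, 84 of 100 genes changed 2-fold and 100 of 100 changed 4-fold were recovered, and for the response of aBcde at 27 minus 17 °C after 1 h R 35 of 100 and 100 of 100 were. Totals ran from 15010386 to 41124234 counts, and no 2 replicates were identical.

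The members and gene lists were chosen with earlier results of these data known. Named genes are the members, the 5 tested genes most correlated with each, up to 3 genes a list with the smallest p in the comparison described, and genes that check the labels. Sequences and positions come from RefSeq's TAIR10.1, and RefSeq symbols matched 28009 of 28775 identifiers.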

Additional observations from a re-analysis of the deposited data

Results flagged for a closer look

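The results collected here are those in which a response to R differed between the temperatures or between lines by a test of the difference itself (edgeR's quasi-likelihood test, adjusted p under 0.05). Values are differences of log2 fold changes.

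For the response at 27 °C minus that at 17 °C, PHYD-YFP/abCde gave 1.501 for PIL1 after 1 h R. After 24 h R it gave 3.32 for PIL1, 1.06 for HFR1, 0.87 for PAR1 and 1.002 for PAR2. PHYB-CFP, PHYD-YFP/abcde gave -1.12 for PAR1 after 1 h R, and -1.47 for PIL1 and 1.33 for PAR2 after 24 h R. In PHYB-CFP/abcde the difference was -1.31 for PAR1 after 1 h R, and -2.69 for PIL1 and -0.65 for HFR1 after 24 h R. In aBcde it was 0.68 for HFR1 after 24 h R. Of these 12, the values of PIL1 and HFR1 in PHYD-YFP/abCde and of PIL1 in PHYB-CFP/abcde after 24 h R passed under each of the 11 alternative settings.

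For PHYD-YFP/abCde minus PHYD-YFP/abcde, the differences after 24 h R were -1.47 for PIL1 and -0.81 for HFR1 at 27 °C. At 17 °C they were -4.04 for PIL1, -1.25 for HFR1, -1.05 for PAR1 and -1.13 for PAR2, and after 1 h R at 17 °C the difference of PIL1 was -1.38. For PHYD-YFP/abCde minus aBcde, PIL1 differed by 2.89 after 1 h and 3.84 after 24 h R at 27 °C, and HFR1 by 1.08 at 27 °C and 0.70 at 17 °C after 24 h R. For PHYB-CFP, PHYD-YFP/abcde minus PHYB-CFP/abcde at 17 °C after 24 h R, the differences were -1.77 for PIL1 and -1.15 for HFR1. For PHYB-CFP/abcde minus aBcde at 17 °C after 24 h R, they were 2.87 and 1.27. Of these 15, 7 passed under each of the 11 alternative settings.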

How the results depend on the processing

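Of 166 calls among 316 tests of the 4 genes, 116 passed under each of the 11 alternative settings that refit the model, and no called result changed sign in them. A 2-fold minimum is not among these 11, and requiring it as well left 17 of 27 calls between 24 h and 1 h R, 25 of 49 between 27 and 17 °C and 1 of 2 between lines in darkness, by the alternative's own construction. A model of each comparison's libraries alone gave 8 calls between lines in darkness in place of 2, and the cause was not tested. The share of all genes called under that model was not computed. Leaving out replicate 1, 2 or 3 gave 53 to 58 calls after R (61 with all libraries), 22 to 25 between 24 h and 1 h R (27), 40 to 46 between temperatures (49), 5 to 8 for the response at 27 minus 17 °C (12), 8 to 14 for the response between lines (15) and 1 to 2 between lines in darkness (2), with fewer libraries in each fit. Replicate numbers did not pair the libraries: in 0 of 30 comparisons did all same-numbered pairs correlate over 0.1, and the median correlation was -0.00438. With the replicate block the counts were 58, 27, 41, 9, 13 and 2 in the same order. Without the 4 libraries high in PHYD 1 call was lost, and without the library of PHYD-YFP/abCde that lay apart 2 were lost and 6 gained. Depth limits PIL1 after 24 h R at 27 °C in lines with phyB, where 1 library rested on 2 counts.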
